A study of Mus musculus with 7 samples.

Results

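The genes described here write, erase and read cytosine methylation: the writers Dnmt1, Dnmt3a, Dnmt3b and Uhrf1, the erasers Tet1, Tet2 and Tet3, and the readers Mbd1, Mbd2 and Mbd3. Their histone H3 lysine 18 lactylation (H3K18La) was followed in the mouse retina by taking every peak that the deposited annotation assigned to one of these 10 genes. This gave 69 of the 108253 peaks, and 9 of the 10 genes had at least 1. The assay was CUT&Tag, which uses an antibody to bring an enzyme to the marked chromatin and releases the DNA there for sequencing. All 7 libraries came from C57Bl/6J retinas dissociated with papain, 2 at postnatal day 4 (P4), 2 at P10 and 3 at P28, with no treatment or altered gene in the labels. Of these, 6 carry the label batch 1, and P28 replicate 1 carries batch 2. The paper describes the replicates as biological, but how many animals a library held is not given in the sources used here. The p-values therefore measure the spread between libraries, part of which may be technical.

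DNA methylation is set on CG dinucleotides (CpGs) by DNMT3A and DNMT3B and copied to the new strand after replication by DNMT1, which UHRF1 brings to hemimethylated sites. The TET enzymes oxidise 5-methylcytosine to 5-hydroxymethylcytosine and further products that can be removed by base excision repair, and neurons are known for high levels of 5-hydroxymethylcytosine. The MBD proteins carry a methyl-CpG-binding domain. MBD2 and MBD3 are alternative subunits of the nucleosome remodelling and deacetylase complex (NuRD), and MBD3 binds methylated CpGs poorly. The retina passes over these ages from a tissue that still holds dividing progenitors to one dominated by postmitotic rods.

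The 250 bases before a RefSeq start site (GRCm38.p6) are shown for 5 genes that differed in H3K18La. They are Dnmt3a and Tet3, which had the most peaks, Dnmt3b, with few reads before P28, Dnmt1, with 1 weak peak, and Uhrf1, with none. Each sequence reads 5′ to 3′ on the gene's own strand, with every CG in capitals. The sequences lie at chr12:3806730-3806979 (plus strand) for Dnmt3a, chr6:83441679-83441928 (minus) for Tet3, chr2:153649199-153649448 (plus) for Dnmt3b, chr9:20952624-20952873 (minus) for Dnmt1 and chr17:56304063-56304312 (plus) for Uhrf1.
Dnmt3a: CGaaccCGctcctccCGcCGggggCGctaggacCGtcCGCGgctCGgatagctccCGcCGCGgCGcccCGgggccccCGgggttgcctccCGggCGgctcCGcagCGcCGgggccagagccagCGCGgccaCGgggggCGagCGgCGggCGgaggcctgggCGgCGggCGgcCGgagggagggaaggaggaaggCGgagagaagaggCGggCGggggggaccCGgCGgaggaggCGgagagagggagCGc
Tet3: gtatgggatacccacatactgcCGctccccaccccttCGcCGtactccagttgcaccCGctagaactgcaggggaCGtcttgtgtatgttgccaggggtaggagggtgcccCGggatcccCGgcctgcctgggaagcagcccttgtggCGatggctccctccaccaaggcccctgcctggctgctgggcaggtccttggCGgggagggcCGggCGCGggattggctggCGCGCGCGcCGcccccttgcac
Dnmt3b: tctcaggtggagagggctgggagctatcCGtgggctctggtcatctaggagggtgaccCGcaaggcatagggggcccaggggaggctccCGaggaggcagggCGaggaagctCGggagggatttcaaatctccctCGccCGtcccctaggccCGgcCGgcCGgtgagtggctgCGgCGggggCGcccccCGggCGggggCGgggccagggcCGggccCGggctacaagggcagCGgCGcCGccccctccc
Dnmt1: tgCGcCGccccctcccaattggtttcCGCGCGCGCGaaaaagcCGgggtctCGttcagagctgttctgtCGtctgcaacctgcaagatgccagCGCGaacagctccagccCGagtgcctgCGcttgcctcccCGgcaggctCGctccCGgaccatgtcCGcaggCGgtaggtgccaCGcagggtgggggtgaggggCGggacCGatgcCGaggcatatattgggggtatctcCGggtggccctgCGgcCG
Uhrf1: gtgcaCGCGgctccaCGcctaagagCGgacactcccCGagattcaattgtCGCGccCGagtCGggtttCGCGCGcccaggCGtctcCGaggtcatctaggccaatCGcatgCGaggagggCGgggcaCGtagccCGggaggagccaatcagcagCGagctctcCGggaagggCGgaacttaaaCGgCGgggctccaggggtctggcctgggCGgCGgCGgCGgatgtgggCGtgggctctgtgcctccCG

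All 5 are CpG-rich. Counted over the 300-base RefSeq windows (250 bases before to 50 after the start), the Dnmt3a window held 46 CGs, a number reached by 1.65% of 32851 promoter windows. The windows of Dnmt1 and Uhrf1 held 33 each, which 8.56% reached, that of Dnmt3b held 30 and that of Tet3 22, against a median of 7. Tet2, not printed, held 57, reached by 0.152% of the windows. RefSeq windows were found for 8 of the 10 genes (13 windows), and 11 of the 13 held the GC box GGGCGG on either strand, against 35.7% of all windows. The CpG-rich start of Uhrf1 overlapped no peak. Of the 2812 windows with at least 33 CGs, the number of this Uhrf1 window, 87.1% overlapped an H3K18La peak and 12.9% did not. Another Uhrf1 window (chr17:56303087-56303386) held 12 CGs, which 39.6% reached, and overlapped no peak either. The Uhrf1 gene (chr17:56303321-56323486) lay wholly between a Plin3 peak 8842 bases to one side and a Kdm4b peak 1942 bases to the other. No peak at any of the 3 ages was assigned to Uhrf1, as for 32.2% of the 21951 protein-coding genes. The limit below which the authors' peak calling listed nothing is not a count, so no upper limit on the level is given.

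The other 9 genes differed widely in how much of them was marked. Dnmt3a held 27 peaks covering 30566 bases, and 2.80% of the protein-coding genes with a peak had that many. Tet3 held 15 (7.04% had that many), Tet1 8, Mbd2 7, Tet2 4 and Dnmt3b 3, Mbd1 and Mbd3 had 2 each, and Dnmt1 had 1. Of the 69 peaks, 42 were annotated to introns, 13 to promoters (from 1000 bases before to 500 after a start site), 5 to exons, 4 to 5′ UTRs, 1 to a 3′ UTR and 4 to distal intergenic sequence. The 13 promoter peaks had a median of 5.79 CGs per 100 bases, and the other 56 a median of 1.32, against 4.90 and 1.06 for all promoter and all other peaks.

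Between P4 and P28, 40 of the 69 peaks rose at a limma adjusted p below 0.01 and none fell. Among all peaks, 18.9% rose and 4.21% fell by the same rule. The peak list joins peaks called at any of the 3 ages. A peak listed only through a later age is low at P4 by that choice, so part of a rise there can be built in. This holds for the 69 peaks and for all peaks. Which age listed each peak was not determined. The median change over the 69 peaks was 2.04 on the log2(RPKM + 1) scale, and over all peaks 0.68. It was 2.37 for Dnmt3a, 2.11 for Tet3 and 1.01 for the 27 peaks of the other 7 genes. Between P4 and P10, 22 of the 69 rose and none fell, against 11.4% of all peaks, with a median change of 1.44 beside 0.23. These rises were uneven: Dnmt3a and Tet3 gave 32 of the 40 at P28 and 20 of the 22 at P10, and of the 27 peaks of the other 7 genes 8 rose by P28 and 2 by P10. Between P10 and P28 no peak of these genes passed (0.00185% of all peaks rose). At an unadjusted p below 0.05 limma gave 23 of the 69, 21 of them higher at P28, against 35202 of all 108253 peaks, and voom on the reads called 2, both higher, against 2346 higher and 6594 lower among all peaks. Single libraries weighed on these counts: 11 and 20 peaks rose by P28 without P4 replicate 1 or 2, and 19 and 18 without P28 replicate 2 or 3. Of all 108253 peaks, 5644, 6347, 9010 and 9150 rose in those fits, against 20488 with every library. By P10, 6 and 11 rose without P4 replicate 1 or 2, and 13 without P28 replicate 2, beside 2799, 3188 and 5473 of all peaks, against 12320. Without P10 replicate 2, 10 peaks were higher and 1 lower at P28 than at P10, beside 14054 and 2453 of all peaks. Every P28 library lay above every P4 library at 62 of the 69 peaks, which was so at 50.6% of all peaks. Among peaks at or above the median signal, the median change by P28 was 2.21 for 52 member peaks and 1.27 for all. By P10 it was 1.77 and 1.00.

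Depth bounds these comparisons. The libraries held from 199970 (P10 replicate 1) to 8274373 (P28 replicate 2) reads in peaks, and both P4 libraries had 3 reads or fewer at 40 of the 69 peaks, against 20 for both P10 libraries and 0 for the P28 libraries. Reads in peaks made up 16.3 and 17.6% of the normalised library size at P4, 36.1 and 52.1% at P10, and 42.4 to 57.1% at P28. This moves with age as the rises do. Scaled to the reads in peaks instead, the median of all peaks moved from 0.68 to -0.29 (P28 against P4) and from 0.23 to -0.53 (P10 against P4). On that scale 13 of the 69 peaks rose and 1 fell by P28, and 8 rose and 2 fell by P10. For all peaks the split went from 20488 higher and 4553 lower to 7759 and 16246 (P28 against P4), and from 12320 and 7944 to 4706 and 17156 (P10 against P4). Within batch 1, that is without P28 replicate 1, 29 of the 69 peaks rose by P28, beside 12493 of all 108253.

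**Figure D1:**
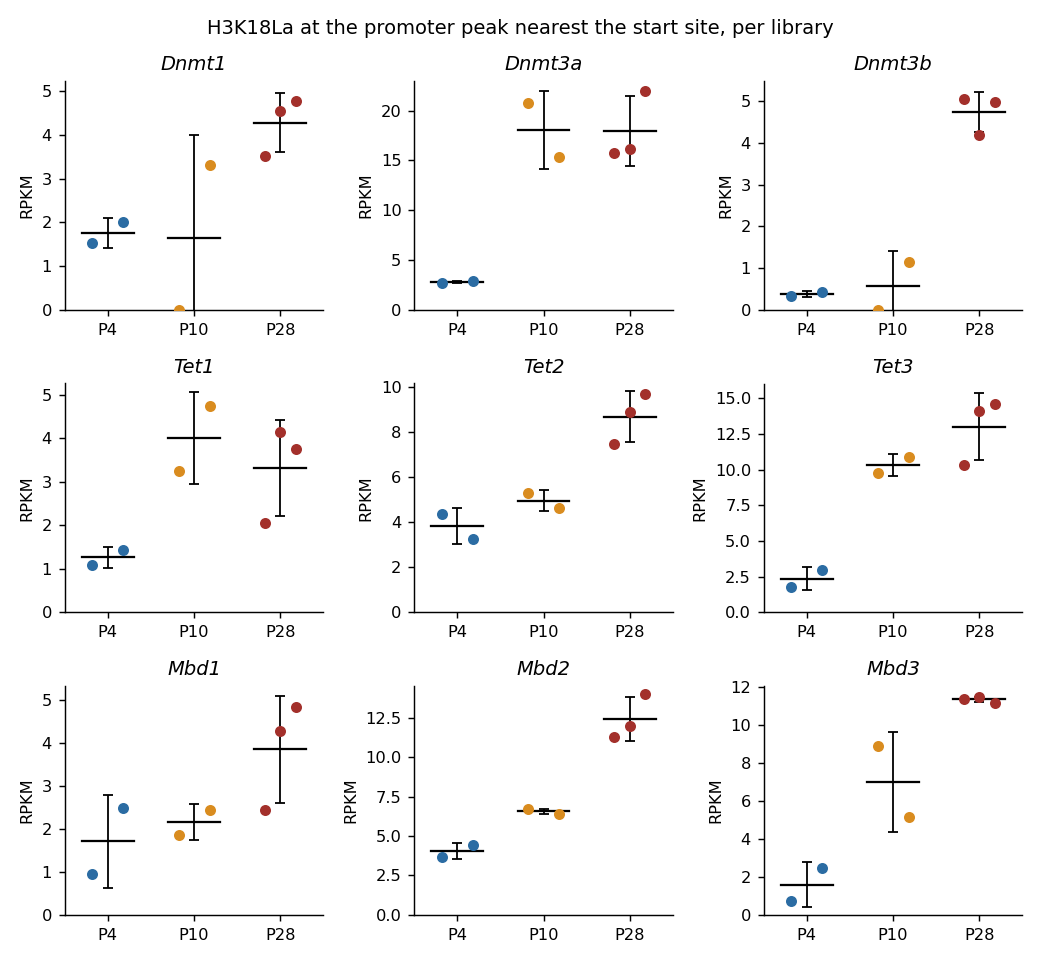
RPKM at the promoter peak nearest the start site of each gene (y axis, a separate scale from 0 for each gene) by age (x axis). Points are libraries, lines the means and bars 1 SD (2, 2 and 3 libraries, bars cut off at 0). Dnmt3a is high in both P10 libraries, from 15.3 RPKM, while Dnmt3b lies at or below 1.16 RPKM in every P4 and P10 library and at 4.18 to 5.04 at P28. Uhrf1 has no peak.

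Among the writers, Dnmt3a, one of the enzymes that place methyl groups on unmethylated DNA, carried the most signal at P10 and P28. Its promoter peak (chr12:3805356-3807006, ENSMUSG00000020661) covers the sequence printed above. It stood at 2.75 and 2.89 RPKM at P4, 20.8 and 15.3 at P10, and 15.7, 16.1 and 22 at P28. Every P10 and P28 library lay above both P4 libraries, and P10 and P28 overlapped. The mean rose 6.39-fold from P4 (2.82 ± 0.0986 RPKM, SD, n = 2) to P10 (18 ± 3.89, n = 2) and was 17.9 ± 3.49 at P28 (n = 3), on 18, 51 and 742 reads in all. On the log2 scale the change was 2.30 ± 0.31 (SE, limma adjusted p = 0.00111) by P10 and 2.29 ± 0.28 (adjusted p = 3.69e-04) by P28. The call by P28 held with any library left out and was lost when libraries were scaled to reads in peaks or thinned to the smallest library (adjusted p up to 0.0421 over all alternatives). The call by P10 was also lost without either P4 library (adjusted p up to 0.0606).

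The gain reached across the body of Dnmt3a. Of its 27 peaks, 22 rose by P28 and 16 by P10, with median changes of 2.37 and 2.06, and 19 of the 23 that are not promoter peaks rose by P28. Among all peaks outside promoters 16.6% rose. With each library left out in turn, 9 of the 22 calls by P28 and 5 of the 16 by P10 held every time, and 18 of the 22 held within batch 1. Scaled to reads in peaks, 8 of the 22 and 5 of the 16 held. The strongest stretch lay 27.6 to 35.5 kb downstream of the first annotated start. Its tallest peak at P10, annotated to an exon (chr12:3836137-3838339), had 2.89 and 2.71 RPKM at P4, 39.3 and 54.0 at P10, and 24.3, 31.1 and 30.5 at P28. Both P10 libraries were above all P28 libraries there, though P28 against P10 did not pass (log2 change -0.68, limma adjusted p = 0.106). The rise by P10 was 16.7-fold (log2 change 3.63 ± 0.29, adjusted p = 3.80e-04), and it ranked at percentile 99.8 of the changes of all peaks. Both of its calls held in all 16 alternatives.

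Other peaks of this stretch also rose by both ages. The intron peak at chr12:3841085-3841886 had 1.70 and 0 RPKM at P4, 18 and 18.7 at P10, and 21.6, 26.8 and 30.8 at P28. Its change by P28, 4.05 ± 0.40, was the largest of the 69 peaks and held with any library left out, and its P28 libraries lay above P10 (0.49, adjusted p = 0.419). That call by P28 was lost when thinned to the smallest library (limma adjusted p = 0.0190). The neighbouring intron peak (chr12:3839051-3839648) went from 0.760 and 2.99 to 36.2 and 35.6 and then 27.6, 31.1 and 38.1 RPKM.

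At other peaks of the gene the P28 libraries could lie above P10 as well as P4, though no peak passed between P10 and P28. At chr12:3855601-3856733, an intron peak, the values were 0.802 and 2.63 RPKM at P4, 9.56 and 21.6 at P10, and 26.9, 30.9 and 35.1 at P28, so that the ages did not overlap. It rose by P10 (2.59 ± 0.44, limma adjusted p = 0.00251) and by P28 (3.63 ± 0.40), the latter in all 16 alternatives, and P28 against P10 did not pass (1.04, adjusted p = 0.106). The call by P10 was lost without either P4 library (adjusted p up to 0.0325 over all alternatives). The promoter-class peak at an internal start (chr12:3883443-3886123) went from 0.508 and 0.890 to 5.39 and 6.76 and then 11.6, 12 and 12.9 RPKM, a 17.5-fold rise by P28 (log2 change 2.97 ± 0.31, limma adjusted p = 2.01e-04) that held in all 16. It too was called by P10 (2.06 ± 0.34, adjusted p = 0.00230, and 0.0128 at most without P4 replicate 1 or P28 replicate 2) and did not pass from P10 to P28 (0.91, adjusted p = 0.0788). Another promoter-class peak (chr12:3849306-3850491) also rose by P28, by 2.10 ± 0.38, a call lost without either P4 library or P28 replicate 2 or 3 (adjusted p up to 0.0206). The internal RefSeq start at which the shorter isoform DNMT3A2 begins (window chr12:3891494-3891793) overlapped no peak. An intron peak 446 bases beyond it (chr12:3892240-3892787) had 0 and 1.09 RPKM at P4, 3.29 and 5.75 at P10, and 5.74, 7.85 and 5.99 at P28. It rose by P28, but not without P4 replicate 1 or any 1 of the P28 libraries (adjusted p up to 0.0249).

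The 3′ end of Dnmt3a did not share in the rise. The last promoter-class peak (chr12:3896828-3897524) had 2.61 and 2.57 RPKM at P4, 0 and 4.52 at P10, and 1.13, 2.20 and 1.49 at P28, the 1 peak of the gene at which every P28 library lay below both P4 libraries. It did not pass (log2 change -0.48, limma adjusted p = 0.570). The 3′ UTR peak (chr12:3909629-3911717) had 2.18 and 0.857, then 0 in both P10 libraries, then 2.89, 1.59 and 1.32 RPKM.

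**Figure D2:**
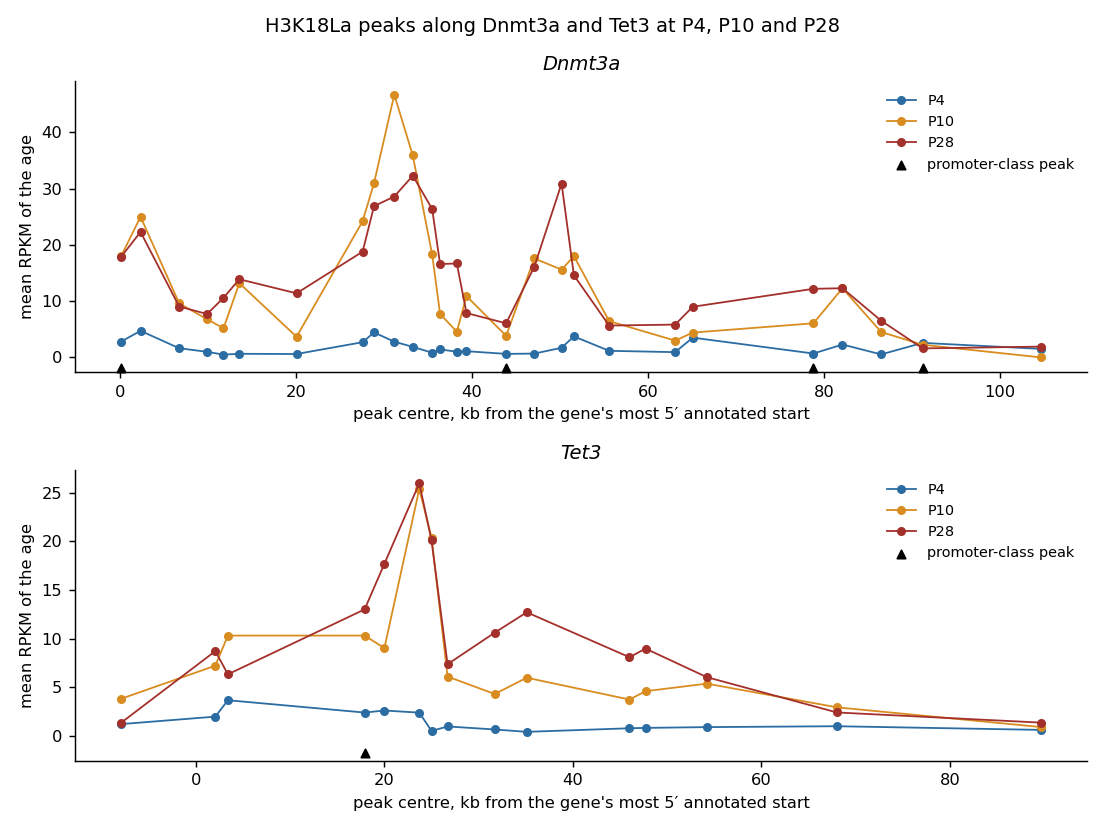
Mean RPKM of each age (y axis) at the 27 peaks of Dnmt3a and the 15 of Tet3, placed by the distance of the peak centre from the gene's most 5′ annotated start (x axis, kb), with triangles under promoter-class peaks. The P4 line stays at or below 4.73 RPKM in Dnmt3a and 3.64 in Tet3, and the P10 and P28 lines share a tall stretch at 31.2 kb in Dnmt3a and at 23.7 kb in Tet3.

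Dnmt3b, the other de novo enzyme, behaved differently. Its promoter peak (chr2:153649055-153650408), which holds 8.71 CGs per 100 bases, had 0.336 and 0.441 RPKM at P4, 0 and 1.16 at P10, and 5.04, 4.18 and 4.97 at P28. The P28 libraries lay above all others and the P4 and P10 libraries overlapped, with 2 reads in all at each of these ages against 157 at P28. The change by P28 was 2.04 ± 0.47 (limma adjusted p = 0.00725), and that by P10 0.08 ± 0.51 (adjusted p = 0.926). The P28 call was lost in 10 of 15 alternatives, among them leaving out either P4 library or any P28 library (adjusted p up to 0.0666). P28 against P10 gave 1.96 with an adjusted p of 0.0278. A distal peak upstream of the start (chr2:153642490-153643307) followed the same course, with 0.555 and 0 RPKM at P4, 0 in both P10 libraries, and 2.25, 2.48 and 2.96 at P28 (change by P28 1.51 ± 0.34, adjusted p = 0.00698, and up to 0.0708 without 1 of the P4 or P28 libraries).

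Dnmt1, the maintenance enzyme, had a single peak, at its promoter (chr9:20952191-20953382). The values were 1.52 and 2.00 RPKM at P4, 0 and 3.31 at P10, and 3.52, 4.54 and 4.78 at P28. The P28 libraries were above all others, but the change by P28, 0.93 ± 0.58, did not pass (limma adjusted p = 0.216), and it was below the median change of 1.33 over 1 promoter peak for each of 11686 protein-coding genes. The P10 value rests on 5 reads, all in replicate 2. The RefSeq start of Dnmt1 further upstream (window chr9:20959839-20960138) held 2 CGs and lay 6456 bases from this peak.

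Dnmt3a and Dnmt1 were also set against each other inside each library, which largely takes out what scales a whole library. On the log2(RPKM + 1) scale and over all peaks of a gene, Dnmt3a minus Dnmt1 was -0.02 and 0.01 at P4, 3.76 and 1.85 at P10, and 1.55, 1.51 and 1.58 at P28. The genes were level at P4 and apart at every later library. Dnmt3a minus Dnmt3b was 0.77 and 1.33 at P4, 3.76 and 3.34 at P10, and 1.65, 2.01 and 2.02 at P28, with no overlap between any ages. Dnmt3b had 4 reads at P4 and 2 at P10 over all its peaks, and Dnmt1 none in P10 replicate 1, so that these differences largely repeat the level of Dnmt3a there. Two-sided exact permutation tests gave p = 0.20 for both differences at P28 against P4 and 0.33 at P10 against P4, the smallest p these numbers of libraries allow.

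Among the erasers, Tet3, the TET enzyme with the highest P28 signal here, followed Dnmt3a. Its promoter peak (chr6:83440201-83442230) had 1.79 and 2.94 RPKM at P4, 9.78 and 10.9 at P10, and 10.3, 14.1 and 14.6 at P28. Both later ages lay above P4 and overlapped each other. The rise was 4.37-fold by P10 (log2 change 1.77 ± 0.34, limma adjusted p = 0.00399) and 5.51-fold by P28 (2.07 ± 0.31, adjusted p = 8.48e-04), on 18, 39 and 719 reads. Without P4 replicate 1 neither call held, and the P10 call was also lost without P4 replicate 2, P28 replicate 2 or P28 replicate 3 (adjusted p up to 0.0840 over all alternatives).

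Of the 15 Tet3 peaks, 10 rose by P28 and 4 by P10, against 18.9% and 11.4% of all peaks. Of these, 2 of the 10 and 1 of the 4 were called with every library left out in turn, and 3 and 2 when scaled to reads in peaks. The tallest, in an intron (chr6:83434794-83436061), had 1.43 and 3.29 RPKM at P4, 22.8 and 28 at P10, and 18.8, 26.5 and 32.8 at P28, an 11.0-fold rise by P28 (log2 change 3.03 ± 0.34, limma adjusted p = 2.53e-04). The next intron peak (chr6:83433814-83434290) had 0.953 and 0 RPKM at P4, 22.7 and 18.2 at P10, and 18.2 to 22.1 at P28, and its change by P10 ranked at percentile 99.9 of all peaks. It is the peak whose calls at both ages held with every library left out, and the calls of the tallest held except P10 against P4 without P4 replicate 1 (adjusted p = 0.0111). Thinned to the smallest library, both peaks lost their calls at both ages (limma adjusted p up to 0.0269 for this peak and 0.0296 for the tallest). Further into the gene, at chr6:83426230-83428495 the values were 0.201 and 1.05, then 1.59 and 6.96, then 7.76, 10.7 and 13.2 RPKM. There only the change by P28 passed (2.85 ± 0.51, adjusted p = 0.00203, and up to 0.0443 without 1 of the P4 or P28 libraries). The peaks at both ends, the first of them upstream of the first start, stayed at or below 4.05 RPKM in every library.

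Tet1 had 2 promoter peaks, both at distance 0 from an annotated start. The 5′ one (chr10:62885878-62887536), which holds the RefSeq start, had 1.10 and 1.44 RPKM at P4, 3.26 and 4.75 at P10, and 2.06, 4.15 and 3.75 at P28. All later libraries lay above P4, but neither change passed (1.13 by P10 and 0.90 by P28, limma adjusted p = 0.0777 and 0.102). The internal one (chr10:62865206-62867993) had 1.47 and 1.28 at P4, 3.89 and 4.52 at P10, and 6.68, 9.19 and 11.1 at P28, without overlap between ages, and rose 6.53-fold by P28 (2.05 ± 0.34, adjusted p = 0.00146), a call lost without either P4 library or P28 replicate 2 or 3 (adjusted p up to 0.0160). In introns, the peaks at chr10:62843229-62845618 and chr10:62847101-62848075 also rose by P28, by 2.75 ± 0.39 and 2.10 ± 0.45. The first of these calls was lost without P4 replicate 1 (adjusted p = 0.0110), and the second without any 1 of the P4 or P28 libraries (adjusted p up to 0.0609). The intron peak at chr10:62856788-62857167 had 2.39 and 1.57 RPKM at P4, 23.8 and 8.30 at P10, and 6.21, 6.15 and 9.09 at P28, and rose by P10 only by the test (2.36 ± 0.47, adjusted p = 0.00471, against 1.45 by P28, adjusted p = 0.0226). That call was lost without any 1 library except P10 replicate 2 (adjusted p up to 0.0543).

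Tet2 had the highest P4 promoter signal of the 3 erasers and the smallest ratio of mean RPKM between P28 and P4. Its promoter peak (chr3:133543083-133545464) had 4.39 and 3.26 RPKM at P4, 5.31 and 4.63 at P10, and 7.49, 8.90 and 9.72 at P28. The ages did not overlap, yet the 2.28-fold rise by P28 did not pass (1.01 ± 0.31, limma adjusted p = 0.0242), and the change turned to -0.32 with scaling to reads in peaks and to -0.21 with quantile normalisation. None of its 4 peaks passed in any comparison of the main test. An intron peak (chr3:133532947-133534427) with 0.614 and 0.403 RPKM at P4, 0 and 1.06 at P10, and 3.37, 5.81 and 5.60 at P28 came nearest (1.95, adjusted p = 0.0104), and voom called it higher at P28 than at P10.

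The readers split as well. Mbd3 rose at its CpG-dense promoter peak (chr10:80398836-80400054, 10.8 CGs per 100 bases, at percentile 96.8 of promoter peaks). The values were 0.745 and 2.45 RPKM at P4, 8.89 and 5.17 at P10, and 11.4, 11.5 and 11.2 at P28, without overlap between ages. The rise by P28 was 7.13-fold (2.34 ± 0.38, limma adjusted p = 0.00127) and was not called without P4 replicate 1 (adjusted p = 0.0167), nor with scaling to reads in peaks, quantile normalisation or thinning (adjusted p up to 0.0691), and that by P10 did not pass (1.67 ± 0.41, adjusted p = 0.0118). Its other peak, distal intergenic (chr10:80391506-80392369), had 0 and 0.691 RPKM at P4, 2.09 and 1.82 at P10, and 1.21, 1.07 and 1.20 at P28, and did not pass (0.73 by P28, adjusted p = 0.155).

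Mbd2 started high. Its promoter peak (chr18:70567807-70569155) had 3.70 and 4.42 RPKM at P4, 6.69 and 6.43 at P10, and 11.3, 12 and 14.0 at P28, again without overlap between ages. Its P4 mean of 4.06 ± 0.508 RPKM (SD, n = 2) was the highest of the 9 promoter peaks, with that of Tet2 (3.82 ± 0.799) within the spread. The 3.06-fold rise by P28 passed (1.40 ± 0.28, limma adjusted p = 0.00355), and was lost in 10 of 16 alternatives, with any P4 or P28 library left out among them (adjusted p up to 0.0224). Under the other scalings it came down to 0.05 (adjusted p = 0.879). The intron peak at chr18:70590131-70591584 had 0.937 and 0.410 RPKM at P4, 1.24 and 2.71 at P10, and 6.86, 9.0 and 11.4 at P28, and also rose by P28 (2.58 ± 0.41, adjusted p = 0.00115, and up to 0.0184 without a P4 library or P28 replicate 2 or 3). The other 5 Mbd2 peaks did not pass. At 1 of them (chr18:70552212-70552549) every P28 library lay below both P4 libraries. Its change by P28, -1.01, was the largest fall of the 69 peaks and did not pass. Few reads bound these changes: of the 6 Mbd2 peaks outside the promoter, 5 had 3 reads or fewer in each P4 library.

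Mbd1 had no peak that passed. Its promoter peak (chr18:74267756-74268719) had 0.943 and 2.48 RPKM at P4, 1.87 and 2.45 at P10, and 2.45, 4.27 and 4.84 at P28, with P4 and P28 overlapping. The change by P28 was 0.87 ± 0.44 (limma adjusted p = 0.138), and -0.23 with scaling to reads in peaks. Its exon peak (chr18:74275312-74276251) had 1.45 and 2.54 RPKM at P4, 0 and 0.839 at P10, and 0.558, 0.850 and 0.919 at P28. Every later library was below P4 at this peak (-0.74 by P28, adjusted p = 0.155), which was called lower at P28 with scaling to reads in peaks and with quantile normalisation.

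Over the 9 promoter peaks, 5 rose by P28 (Dnmt3a, Dnmt3b, Tet3, Mbd2 and Mbd3) against 32.7% of the promoter peaks of protein-coding genes taken 1 per gene. By P10, 2 rose (Dnmt3a and Tet3) against 11.2%. Their median changes were 1.40 and 0.58, beside 1.33 and 0.53 over those promoter peaks, so that the 9 promoters as a list lay close to promoters in general. Scaled to reads in peaks, none of the 5 calls by P28 and neither of the 2 by P10 held. On that scale 6.98 and 2.28% of those promoter peaks were called higher. With each library left out in turn, only the Dnmt3a call by P28 held every time, and neither call by P10 did. Without P28 replicate 1, 2 or 3 the Dnmt3b and Mbd2 calls were lost, beside 17.0, 12.7 and 12.4% of those promoter peaks called higher.

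The signal was also summed over all peaks of each gene. On this measure 7 of the 9 genes rose between P4 and P28 (all but Dnmt1 and Mbd1), against 33.7% of 25420 genes. By P10, 4 rose (Dnmt3a, Tet1, Tet3 and Mbd3) against 16.5%. Dnmt3a rose from 1.49 and 2.03 RPKM at P4 to 12.6 and 14.6 at P10 and stood at 12.2, 14.7 and 16.3 at P28, an 8.20-fold rise by P28 on 204, 778 and 11642 reads. Both calls held in all 16 alternatives, with changes from 1.29 to 3.05 by P28 and from 1.40 to 2.97 by P10.

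Tet3 went from 0.913 and 1.77 to 6.95 and 8.36 and then 7.88, 10.8 and 12.2 RPKM. Its change by P28 (2.28 ± 0.26, limma adjusted p = 1.83e-04) held in all 16 alternatives, and that by P10 (1.91 ± 0.28) in 13, being lost among others without P4 replicate 1 (adjusted p up to 0.0156). Tet1 went from 0.868 and 0.959 to 4.17 and 4.59 and then 4.46, 6.56 and 8.02 RPKM, and its change by P28 (1.91 ± 0.26, adjusted p = 3.83e-04) also held in all 16. Its call by P10 was lost without either P4 library or P28 replicate 2 (adjusted p up to 0.0302).

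The remaining genes were less firm. Mbd2 rose by 1.41 ± 0.22 (limma adjusted p = 7.93e-04), a call kept in 14 of 16 alternatives. It was lost with scaling to reads in peaks and with quantile normalisation. Over all alternatives the Mbd2 change came down to 0.26 (adjusted p up to 0.186). Mbd3 rose by 2.04 ± 0.30 (adjusted p = 6.20e-04), a call kept in 13 and lost with those 2 scalings and thinning. Dnmt3b rose by 1.64 ± 0.29 (adjusted p = 0.00160) and Tet2 by 1.12 ± 0.22 (adjusted p = 0.00264), and each was lost without either P4 library (adjusted p up to 0.0292 for Dnmt3b over all alternatives). The Tet2 call was also lost without P28 replicate 2 or 3, and its change came to -0.04 with scaling to reads in peaks. The Mbd3 call by P10 (1.56 ± 0.33, adjusted p = 0.00604) was lost without P4 replicate 1, P10 replicate 1 or any P28 library (adjusted p up to 0.202 over all alternatives). Between P10 and P28, Dnmt3b was the 1 gene of the 9 that rose (1.74 ± 0.29, adjusted p = 0.00780, against 4.20% of genes), and 13 of 15 alternatives lost that call, every left-out library except P10 replicate 2 included (adjusted p up to 0.0769).

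**Figure D3:**
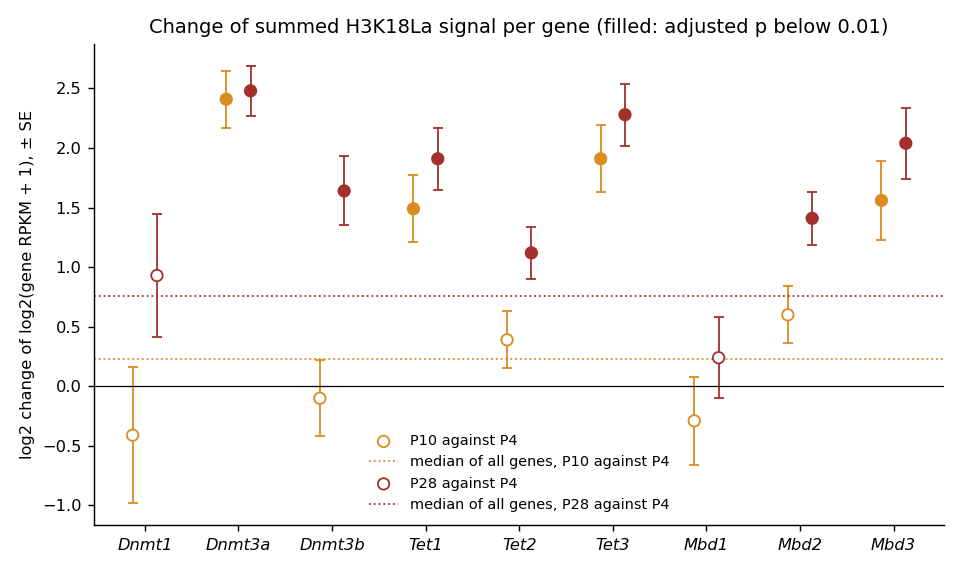
Change of the signal summed over all peaks of a gene (y axis, difference of log2(RPKM + 1), bars 1 SE) for the 9 genes with a peak (x axis), P10 against P4 in orange and P28 against P4 in red. Filled points passed an adjusted p below 0.01, and dotted lines mark the median change of all 25420 genes, 0.23 and 0.76. Dnmt3a is at 2.41 and 2.48, and Dnmt3b is at -0.10 by P10 and 1.64 by P28.

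Ranks within a library do not move with its scale. They can move with its depth, since the median peak had 1 or 2 reads in each P4 and P10 library. Among 11686 promoter peaks, 1 per protein-coding gene, the Dnmt3a promoter stood at percentiles 78.4 and 77.9 at P4, 98.8 and 96.1 at P10, and 95.0, 94.2 and 96.4 at P28. Tet3 moved from 57.9 and 78.7 to 92.2 and 92.0 and then 85.6, 91.6 and 89.0. Mbd3 moved from 23.3 and 70.2 to 90.7 and 70.6 and then 88.2, 86.9 and 81.1. These 3 genes ranked higher in every later library than in either P4 library, Mbd3 by a narrow margin at P10 replicate 2. Dnmt3b stood at 10.3 and 12.4, then 13.8 and 18.4, then 55.8, 43.2 and 45. Its P4 and P10 ranks rest on 2 reads in all at each age, and the 13.8 at P10 replicate 1, where it had 0 reads, is the rank that every promoter peak without a read shares in that library. Its P28 ranks lay above both P4 libraries.

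Other promoters kept or lost rank among promoter peaks while their mean RPKM at P28 was above that at P4. Ranked among all peaks instead, the change by P28 turned upward for Dnmt1 (10.5), Tet1 (15.4), Mbd1 (11.0) and Mbd2 (0.695). Tet2 went from 93.7 and 83.2 at P4 to 77.6 and 66.2 at P10 and 73.8, 78.6 and 76.2 at P28, and Mbd2 from 89.5 and 92.9 to 84.5 and 78.9 and then 87.9, 88.0 and 87.7. Dnmt1 stood at 49.7 and 59.8, then 13.8 (0 reads) and 51.5, then 38.2, 47.4 and 43.0, with the P28 libraries below P4. Mbd1 overlapped at all ages. Tet1 was highest at P10 (60.8 and 67.3), against 35.2 and 44.3 at P4 and 17.2, 42.9 and 31.7 at P28. Two-sided exact permutation tests of P28 against P4 gave p = 0.20 for Dnmt1, Dnmt3a, Dnmt3b, Tet2, Tet3, Mbd2 and Mbd3, 0.400 for Tet1 and 0.600 for Mbd1, and 0.20 is the smallest p possible with 3 against 2 libraries.

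**Figure D4:**
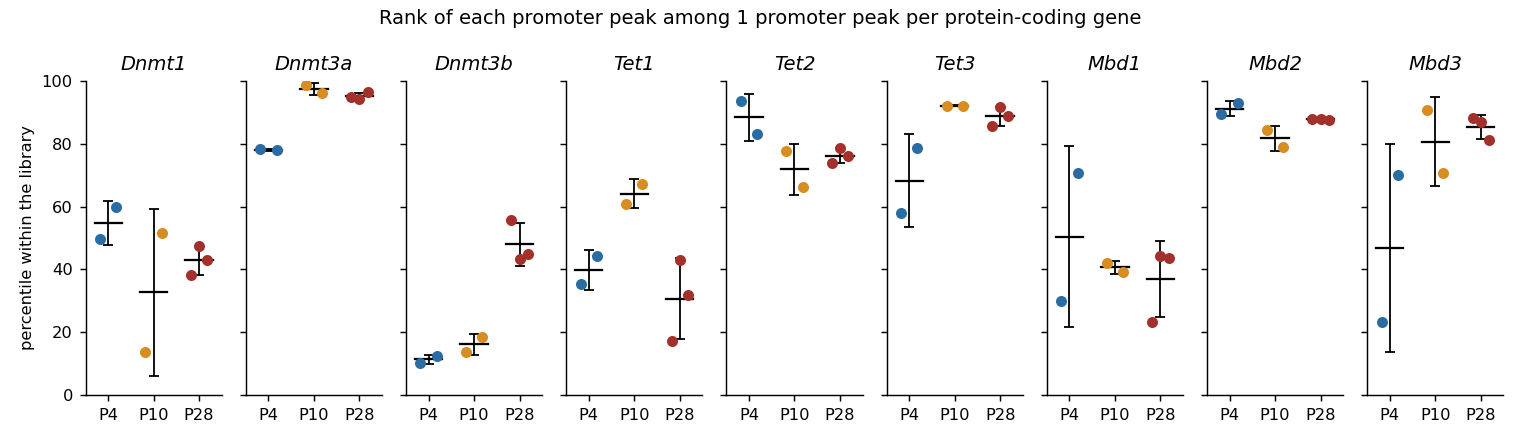
Percentile of each gene's promoter peak within a library (y axis, 0 to 100) among 11686 promoter peaks, 1 per protein-coding gene, by age (x axis). Points are libraries, lines the means and bars 1 SD. Dnmt3a, Tet3 and Mbd3 are higher in every P10 and P28 library than at P4, Dnmt3b, with 0 reads in P10 replicate 1, is at 18.4 or below at P4 and P10 and at 43.2 or above at P28, and Tet2 is lower at P10 and P28 than at P4.

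The genes that work with these enzymes were taken as 4 lists of 55 genes, 48 of them with a promoter peak, and 20 of the 48 rose by P28 and 10 by P10, with none lower, against 32.7% and 11.2% of promoter peaks taken 1 per gene. The list of eraser-related and base excision repair genes had the most rises: 8 of 14 by P28 and 5 by P10, with a median change of 2.06 by P28. Besides repair genes, the 8 included Idh1, Idh2, Gadd45a, Gadd45g and Ogt. Neil3, a repair gene of the list, went the other way without passing (-1.40, limma adjusted p = 0.0468), with every P28 library below both P4 libraries. Smug1, a uracil and 5-hydroxymethyluracil glycosylase, rose by 3.31 ± 0.31 (mean RPKM 2.03 at P4 and 28.4 at P28), Parp1, a strand-break sensor listed at 0 in both P4 libraries, by 3.23 ± 0.42, Neil2, a glycosylase, by 2.96 ± 0.33, and Idh2, which makes the TET cosubstrate 2-oxoglutarate in mitochondria, by 2.57 ± 0.35. Apex1 had no peak. Tdg, the glycosylase that removes the oxidised bases TETs make, had a mean of 2.48 RPKM at P4, 1.92 at P10 and 7.68 at P28 and did not pass (1.40, limma adjusted p = 0.0167).

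Of the genes around maintenance methylation and methyl donor supply, 2 of 11 rose by P28, Pcna, the replication clamp, by 2.68 ± 0.62 and Mat2a, which makes the methyl donor S-adenosylmethionine, by 1.95 ± 0.27. Mat2a was the 1 gene of this list that rose by P10 (1.93). The median change by P28 was 1.03. Further readers rose at 5 of 12 by P28 and 3 by P10, and those with the largest rises by P28 were Zbtb4 by 2.74 ± 0.34, Kdm2b by 2.46 ± 0.49, Kmt2a by 2.44 ± 0.33 and Cxxc5 by 2.25 ± 0.32, the last 3 carrying CXXC domains that bind unmethylated CpGs. Of the NuRD genes, 5 of 11 rose by P28 and 1, the remodeller Chd4, by P10. Besides Chd4 (2.01 ± 0.35) these were the deacetylase Hdac1 (2.38 ± 0.38), Gatad2a (2.08 ± 0.31), Mta1 (1.82 ± 0.38) and the histone-binding Rbbp4 (1.75 ± 0.38). Tdg and Rbbp4 were picked after their values were seen. With scaling to reads in peaks, the 10 calls by P10 came to 3 higher and 1 lower. On that scale 2.28 and 5.12% of the 11686 promoter peaks were called higher and lower. None of the 48 passed by P10 when thinned to the smallest library, where 1.09% of the 11686 were higher. Without P28 replicate 1 or 2, 6 of the 48 were called higher by P10, beside 6.38 and 4.33%. The 20 calls by P28, of 48 promoters, fell to 7, 6 of them higher, with scaling to reads in peaks. Among the 11686 promoter peaks the share called went from 33.1% to 10.5% in the same fits. The related promoters called came to 8 without either P4 library, beside 9.36 and 10.3% of the 11686. They came to 12 and 11 without P28 replicate 2 or 3, beside 12.8 and 12.5%, and to 31 without either P10 library, beside 55.3 and 55.5%.

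The tissue label was checked against marker genes, and the signal at cell type markers moved with age. Rod genes had 8 promoter peaks among 9 genes, and all 8 rose by P10, against 11.2% of promoter peaks taken 1 per protein-coding gene. Their summed RPKM was 21.7 to 27.5 at P4, 189.7 to 200.2 at P10 and 142.0 to 200.0 at P28. Progenitor genes, 7 of 10 with a promoter peak, summed to 8.83 to 13.3, 4.84 to 10.1 and 24.2 to 34.6. By P28, 1 of the 7 rose, against 32.7% of promoter peaks taken 1 per protein-coding gene. Bipolar genes (5 of 6) summed to 4.60 to 5.65, 8.38 to 13.7 and 23.9 to 31.2, amacrine and ganglion cell genes (4 of 6) to 10.2 to 11.1, 10.7 to 22.2 and 16.6 to 19.5, and Mueller glia genes (3 of 4) to 5.61 to 6.89, 13.7 to 14.8 and 15.2 to 19.9. Single genes carried these sums, with P28 means of 16.3 RPKM for Otx2 (bipolar), 14.1 for Slc6a9 (amacrine) and 12.6 for Glul (Mueller glia). The median changes of these lists by P28 were 1.00, -0.59 and 0.41. Gad1, Rbpms and Pou4f1, of the amacrine and ganglion cell list, changed by -0.54, -0.65 and -1.23, and none of them passed. Of 11 markers of pigment epithelium, lens, blood, vessels and microglia, 3 had a promoter peak, summing to 5.59 to 9.36, 1.40 to 3.41 and 3.92 to 4.77, and of 5 markers of other organs none had one. The Dnmt3a and Tet3 gains by P10 came in the libraries in which the rod genes rose. In whole retina, more cells of a type and more of the mark per cell cannot be told apart, and the part of either in these changes was not tested.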

How the data were processed

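H3K18La CUT&Tag reads of 7 mouse retina libraries had been mapped to GRCm38 with nf-core/cutandrun and peaks called with MACS; peaks with a -log10 q above 6 in at least 2 replicates of an age were kept, merged over ages and annotated with ChIPseeker 1.34.1. The authors deposited RPKM per peak, on library sizes normalised from 10000-base windows. Their table of fold changes, p-values and false discovery rates was not used.

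The 108253 RPKM values of each library came out as whole reads for 100.0% of peaks (within 0.1 read), so depth is known. The unit being RPKM, limma 3.58.1 in R 4.3.3 (eBayes with trend) was fitted on log2(RPKM + 1) to all peaks and 7 libraries, with Benjamini-Hochberg adjustment over all peaks and calls at an adjusted p below 0.01. Log2 changes are on that scale, which understates low peaks, and folds are ratios of mean RPKM. Gene sums used reads of all peaks of a gene over their summed width. A promoter peak was the one nearest an annotated start, with ties given to the 5′-most (chosen after the coordinates were seen). A fold is given only where an age had more than 3 reads in a library. Counting error alone is covered by reads, and P10 replicate 1 had fewest.

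The genes named were the 10 members by their promoter peak, other called peaks and, in related lists, up to 4 genes with the largest rise. Members and lists were chosen with earlier results of these data known. The script was tested on simulated data. Alternatives were another pseudocount, a filter on low peaks, voom, 3 other scalings, thinning, library weights, a replicate block and each library left out. No pair of libraries of an age was a duplicate: their counts differed beyond sampling (1.24 to 3.70 chi-square units per degree of freedom).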

Additional observations from a re-analysis of the deposited data

How the results depend on the processing

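The counts of called peaks moved with the processing. Over all 108253 peaks, 25041 were called for P28 against P4. That came to 24005 scaled to reads in peaks, 5843 when thinned to the smallest library and 11401 to 14838 with a P28 library left out. For P10 against P4 it was 20264, and came to 21862 scaled, 3504 thinned, 7281 with quantile normalisation and 5439 with library weights. For P28 against P10 it was 2, with 8940 by voom and 902 when thinned. The count of called member peaks moved as well. For P28 against P4 it was 40, and came to 14 when scaled to reads in peaks, 9 when thinned to the smallest library and 11 to 47 with 1 library left out. For P10 against P4 it was 22, and came to 10 scaled to reads in peaks, 9 with quantile normalisation, 4 when thinned, 13 with library weights and 6 to 30 with 1 library left out. For P28 against P10 it was 0, and came to 2 with voom, 1 when thinned and 0 to 11 with 1 library left out. Genes called on summed peaks for P28 against P4 went from 7 to 3 scaled to reads in peaks and 4 with quantile normalisation. Of all 25420 genes, 8554 rose and 1795 fell in the main fit. These came to 2861 and 6421 scaled to reads in peaks, and to 4982 and 4733 with quantile normalisation. Related promoters called went from 20 to 7 scaled to reads in peaks, 4 when thinned, 33 with library weights and 8 to 31 with 1 library left out. Of the 11686 promoter peaks, 33.1% were called by P28 in the main fit, 10.5% scaled to reads in peaks, 5.33% when thinned and 56.8% with library weights. Same-numbered replicates shared only a number (correlations of deviations from -0.001 to 0.047). With a replicate block 29, 20 and 0 member peaks, 5 genes and 16 related promoters were called. Over all features the block called 15233, 16747 and 0 of 108253 peaks, 6147 of 25420 genes and 18.2% of the 11686 promoter peaks.

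Directions turned at weak promoter changes. Scaled to reads in peaks, the change by P28 was -0.21 for Dnmt1, -0.15 for Tet1, -0.32 for Tet2 and -0.23 for Mbd1, and that by P10 -0.46 for Dnmt3b, -0.82 for Tet2, -0.65 for Mbd1 and -0.58 for Mbd2. Quantile normalisation gave -0.21 for Tet2 by P28, and -0.71 for Tet2 and -0.55 for Mbd2 by P10. Thinning gave -0.12 for Mbd1 by P28, and 0.23 for Dnmt1, -0.26 for Tet2 and -0.36 for Mbd1 by P10. Dnmt3b by P10 was -0.45 with a pseudocount of 0.1 and -0.16 with median centring. With 1 library left out, the changes by P10 ranged from -1.46 to 0.65 for Dnmt1, -0.47 to 0.64 for Dnmt3b and -0.14 to 0.70 for Mbd1. Dnmt3a from P10 to P28 was 0.01 with voom and -0.22 to 0.20 with 1 library left out.

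On summed peaks, scaling to reads in peaks gave -0.21 (Dnmt1), -0.04 (Tet2) and -0.86 (Mbd1) by P28, and -0.59 (Tet2) and -0.36 (Mbd2) by P10. Mbd1 by P28 was -0.36 with median centring, -0.46 with quantile normalisation, -0.79 when thinned and -0.10 to 0.58 with 1 library left out. By P10, thinning gave 0.23 for Dnmt1 and 0.34 for Dnmt3b, voom 0.21 and quantile normalisation 0.32 for Dnmt3b. Leaving out 1 library gave -1.46 to 0.65 for Dnmt1, -0.41 to 0.21 for Dnmt3b and -0.62 to 0.05 for Mbd1. Ranked among all peaks, the percentile change by P28 was 10.5 for Dnmt1, 15.4 for Tet1, 11.0 for Mbd1 and 0.695 for Mbd2. The cause was not tested.

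Without a P4 or P10 library the lone sample is assumed to vary like the other ages, and the weights stopped short of convergence. Few reads at P4 and P10 limit these calls.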
